A study of Mus musculus with 8 samples.

Results

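Nuclear receptors are transcription factors that bind DNA directly and, for many of them, are switched by small fat-soluble ligands such as bile acids, oxysterols, fatty acids, retinoids, thyroid hormone and steroids. In the liver they set the expression of genes for bile acid, lipid, glucose and drug metabolism, and many of them bind as a heterodimer with a retinoid X receptor (RXR). Those that lack a known natural ligand are called orphan receptors, and Nr0b2 (SHP) lacks a DNA-binding domain and acts by blocking other receptors. The 46 receptor genes described here were chosen by symbol as members of the family, and all 46 were present among the 22059 genes measured. Poly(A) RNA of whole liver from FVB mice (FVB/NJ in the study's methods) was sequenced at embryonic day 18 (E18), postnatal day 14 (P14), postnatal day 28 (P28) and in adults of 3 months, with 2 samples at each stage and 8 in all. The labels name no genetic change or treatment, and all 4 groups share strain and tissue. They give no sex, litter or time of day, and do not say whether a sample is 1 animal or a pool.

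Each sample had 68154675 to 106055723 reads on genes. The liver label was borne out by its markers, as none of the 10 hepatocyte genes was at 0 in any sample. They summed to 33365 and 33410 RPKM (reads per kilobase of transcript, scaled to a sample's depth) at E18 and 42816 and 35559 in adult. Of the 10, 9 were called higher in adult than at E18 under the scaling described below. E18 liver also held blood-forming tissue, with erythroid markers summing to 9788 and 12374 RPKM against 41.5 and 46.2 RPKM in adult. Exocrine pancreas RNA was present in the E18 samples alone at high level, as shown by Cpa1 (a pancreatic carboxypeptidase) at 53.9 and 106.5 RPKM against 0 in both adult samples. The sex chromosome genes did not match between duplicates. Ddx3y, a Y-linked gene, stood at 0 and 8.72 RPKM in the E18 pair and at 9.50 and 0.997 RPKM in the P14 pair, but between 9.22 and 11.1 RPKM in the 4 later samples. Xist, which is expressed from the inactive X of females, stood at 64.0 and 6.75 RPKM at E18, then at 0.0248 and 25.6 RPKM in P14 liver, and at no more than 0.0425 RPKM later. The P28 and adult samples and P14 replicate 1 therefore read as male, and E18 replicate 1, with no Ddx3y and the highest Xist, as female. E18 replicate 2 had Ddx3y near the later level together with some Xist, and P14 replicate 2 had Xist with some Ddx3y. Comparisons of E18 or P14 with later stages thus also differ in these sex signals, and the part of sex was not tested.

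A retinoic acid response is carried at many genes by a pair of GTTCA blocks on the same strand, and this element was searched because Rarb and Cyp26a1, a receptor and a retinoic acid-degrading enzyme, are textbook genes of that kind. In the 250 bases before the RefSeq start (GRCm38.p6), the letters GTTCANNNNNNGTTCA were found on either strand in 22 of 32851 promoters (0.067%). Among the 63 promoters of the 42 receptors with an entry, Rarb alone held it, at 52 to 37 bases before its start, and of 5 genes with an entry on a list of retinoic acid receptor targets, Rarb and Cyp26a1 held it. The Rarb stretch lies at chr14:16575493-16575548 on the minus strand and the Cyp26a1 stretch at chr19:37697756-37697807 on the plus strand, both upstream of the transcript, and the capitals mark the element, which reads on the opposite strand in Cyp26a1.
Rarb: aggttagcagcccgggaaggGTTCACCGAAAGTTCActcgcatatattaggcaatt
Cyp26a1: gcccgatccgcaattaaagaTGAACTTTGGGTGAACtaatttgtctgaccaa

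The hexamer AGGTCA, the core to which most receptors of this family bind, was searched in the same windows on both strands. It was present in 4607 of 32851 promoters (14.0%) and in 11 of the 63 receptor promoters, and it does not overlap with the element above in its letters. Counted by gene, it was found in 6 of the 18 receptors that were called higher in adult than at E18, in 4 of the 24 other receptors with an entry, and in 15.8% of all genes with an entry. The stretches shown are those of the receptors called higher in adult than at E18. The capitals mark the hexamer, or TGACCT where it lies on the opposite strand. A match is a description of these letters and not evidence of binding. The stretches lie at chr2:27709185-27709230 and chr2:27709224-27709269 (Rxra, plus strand), chr1:167618157-167618202 (Rxrg, plus), chr10:89506847-89506892 (Nr1h4, minus), chr14:17660756-17660801 (Thrb, plus), chr14:18239158-18239203 (Nr1d2, minus) and chr1:136960487-136960532 (Nr5a2, minus), all upstream of the transcript.
Rxra, farther from the start: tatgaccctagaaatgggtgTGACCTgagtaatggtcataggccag
Rxra, nearer to the start: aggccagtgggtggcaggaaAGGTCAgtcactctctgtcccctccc
Rxrg: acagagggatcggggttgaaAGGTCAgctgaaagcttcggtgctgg
Nr1h4: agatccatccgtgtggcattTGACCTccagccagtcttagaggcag
Thrb: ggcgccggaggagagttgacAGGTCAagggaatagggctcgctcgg
Nr1d2: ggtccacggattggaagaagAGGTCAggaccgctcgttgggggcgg
Nr5a2: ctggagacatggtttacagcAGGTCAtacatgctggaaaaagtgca

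To see how the family changed as the liver matured, read counts were compared between stages with edgeR's quasi-likelihood test over all genes, and a gene was called at a Benjamini-Hochberg false discovery rate (FDR) below 0.1 with a change of more than 3-fold. The filter on low counts kept 38 of the 46 receptors, and all 38 differed over the 4 stages at this FDR, where 91.0% of all 17081 genes tested did. The other 8 (Esr2, Pgr, Rorb, Nr5a1, Nr2e1, Nr2e3, Nr0b1 and Nr4a3) had at most 17 reads in any sample and were not tested. From E18 to adult, 18 receptors were called higher (47.4%) and 3 lower (7.89%), against 16.8% and 23.8% of all genes tested. Without E18 replicate 1, the sample with no Ddx3y, 19 were called higher and 4 lower. At the FDR alone, 35 receptors passed against 83.4% of all genes. The median log2 fold change of the receptors tested was 1.38, against -0.11 over all genes tested. In the same comparison, 9 of 10 hepatocyte markers were called higher (median 2.91) and all 12 erythroid markers lower (median -10.2). In bulk tissue, a larger share of hepatocytes and more RNA per cell cannot be told apart. The part of cell composition in these counts, and in those of the target lists below, was not tested.

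The count in each direction depended on how E18 was scaled against later stages. TMM (trimmed mean of M-values) gave scaling factors of 1.60 and 1.54 for the E18 samples and 0.847 to 0.888 for the others. From E18 to adult with library size alone, the median gene moved to -0.95 on the log2 scale, 14 receptors were called higher and 5 lower, and over all genes 1653 were higher and 6159 lower, in place of 2863 and 4061. Esrra, Rora, Nr5a2 and Nr2f6 then missed the 3-fold threshold, Thra and Nr4a1 were called lower, and Nr1h2, Rxrb, Pparg and Rarb changed direction. From E18 to P14 with library size alone, 11 receptors were called higher and 4 lower (1266 and 5095 of all genes). Hnf4a, Nr1d2, Nr2f6, Rarb and Thrb then lost their call, and Nr2c2, Nr4a2 and Thra were called lower beside Vdr. The RPKM given below share the scale of library size, so a receptor with equal RPKM at E18 and later has a positive log2 fold change under TMM.

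**Figure D1:**
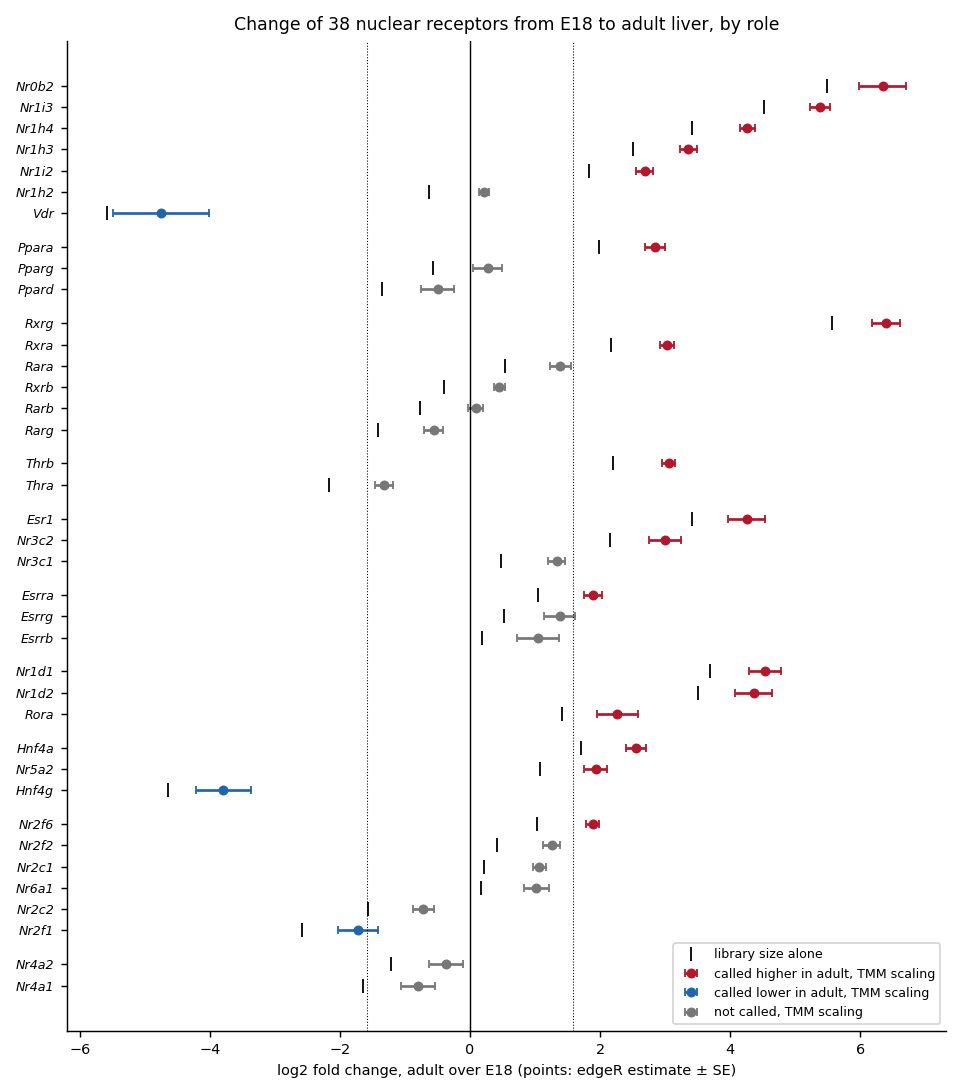
The log2 fold change from E18 to adult (x axis) is drawn for the 38 receptors tested, grouped by role, with points and bars for the edgeR estimate and its SE under TMM scaling and black ticks for library size alone. The 18 red receptors lie right of the dotted 3-fold line at the right, the 3 blue ones (Vdr, Hnf4g and Nr2f1) left of the other, and the ticks lie left of every point.

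Most calls came between E18 and P14. From E18 to P14, 16 receptors were called higher (42.1%, against 13.8% of all genes) and Vdr alone was called lower (2.63%, against 15.4%), and 34 receptors passed the FDR alone where 77.5% of all genes did. From P14 to P28, Nr1d1 was called higher and Esrrg lower, each 2.63% of the receptors, against 3.61% and 5.98% of all genes. Smaller changes were common in that interval, where 28 receptors (73.7%) passed the FDR alone against 53.8% of all genes. From P28 to adult, no receptor was called higher, where 0.767% of all genes were, and Hnf4g was called lower, where 2.24% of all genes were. DESeq2 likewise called no receptor higher in that interval, and at an unadjusted p under 0.05 in edgeR 6 receptors were higher. At the FDR alone, 12 receptors (31.6%) passed from P28 to adult, 4 of them higher and 8 lower, against 21.2% of all genes. The E18 to P14 and E18 to adult comparisons share the E18 samples, and their values are therefore given side by side.

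Summed over all 46 receptors, the level was 294 ± 18.3 RPKM (SD, n = 2) in E18, 625 ± 33.4 in P14, 763 ± 59.9 in P28 and 814 ± 3.58 in adult liver. Hnf4a was the most abundant at every stage, with 19.4% of the sum at E18 and 22.4% in adult. Behind it the order changed. At E18 it was followed by Nr1h2, Nr2f6, Thra, Rxrb and Rxra, and in adult by Rxra, Nr1h3, Nr1i3, Nr2f6 and Nr1h4. With 2 samples a stage, the smallest p that a two-sided exact permutation test allows is 0.333, so sums and shares are described by their values and their overlap.

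**Figure D2:**
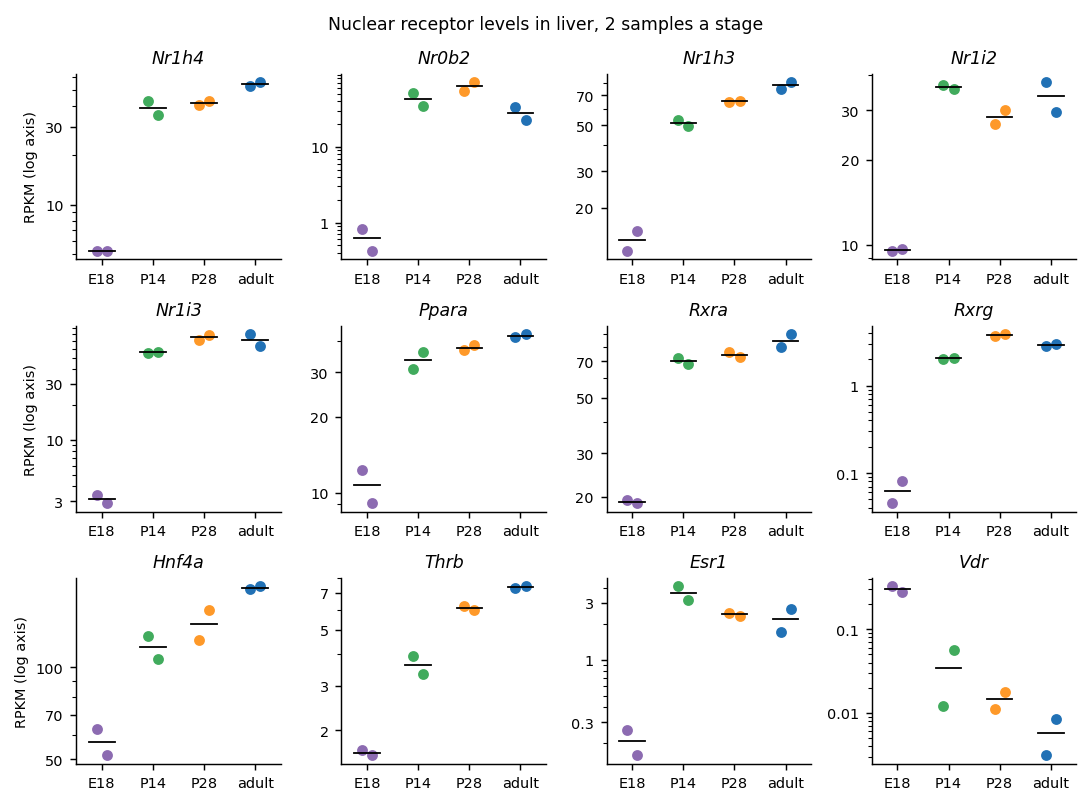
RPKM (log axis, set for each gene) of 12 receptors in each of the 8 samples, with a dot per sample and a line at the mean of the stage. The 11 receptors that were called higher in adult have both E18 samples below every later sample, and Vdr has them above.

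The bile acid receptor and its induced repressor both rose. Nr1h4 (FXR), the bile acid receptor, stood at 5.22 and 5.22 RPKM at E18, 42.9 and 35.4 by P14, 40.5 and 43.3 by P28, and 52.9 and 56.2 in adult. The E18 samples lay below all others, and the change from E18 to adult was 4.26 ± 0.12 on the log2 scale (SE), or 19.1-fold. Nr0b2 (SHP), which FXR induces and which represses bile acid synthesis, was nearly silent before birth. Its levels were 0.822 and 0.423 RPKM at E18, 52.1 and 34.1 by P14, 54.7 and 71.7 by P28, and 33.1 and 22.5 in adult. Its mean was highest at P28, a step up from P14 that did not pass the FDR, and it then fell by 1.20 ± 0.27 (log2, FDR only), while Nr1h4 rose by 0.36 ± 0.10 over the same interval (FDR only), so the pair moved in opposite directions from P28 to adult. From E18 to adult Nr0b2 rose by 6.34 ± 0.37 (81.2-fold). Cyp7a1, the rate-limiting enzyme of bile acid synthesis and a gene that SHP represses, stood at 3.17 and 1.92 RPKM at E18, 23.8 and 21.4 by P14, 9.23 and 5.35 by P28, and 18.7 and 15.7 in adult. From E18 to P14 both rose, Cyp7a1 by 4.01 and Nr0b2 by 6.95 on the log2 scale. Among the postnatal stages Cyp7a1 was lowest at P28, where Nr0b2 was highest. Cyp7a1 rose by 1.22 from P28 to adult on the log2 scale (adjusted p = 0.02). A link between these courses was not tested. Of 13 FXR and SHP targets tested, 10 were called higher in adult than at E18 and 1 lower, against 16.8% and 23.8% of all genes. Their median log2 fold change was 4.38 beside -0.11 over all genes. The list includes Nr0b2 itself and Cyp7a1, which SHP represses, so induced and repressed genes are counted together. The highest were Baat (bile acid conjugation) at 7.31 and Slc10a1 (bile acid uptake) at 6.71, and the one that fell was Osta, a subunit of the basolateral bile acid exporter, from 1.43 and 0.797 RPKM to 0 and 0.0158.

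The oxysterol receptors exchanged places. Nr1h3 (LXR alpha) stood at 12.4 and 15.5 RPKM at E18, 53.2 and 49.4 by P14, 64.8 and 65.7 by P28, and 74.9 and 80.9 in adult, a rise of 3.36 ± 0.13 (log2) from E18 to adult. Nr1h2 (LXR beta), the form found in most tissues, stood at 35.5 and 35.6 RPKM at E18 and at 22.3 and 22.8 in adult. For Nr1h2 the log2 fold change was 0.22 under TMM and -0.63 with library size alone. Within each sample, where scaling plays no part, Nr1h3 held 28.1 ± 3.13% of the summed LXR RPKM at E18 and 77.5 ± 0.694% in adult. Among 11 LXR targets tested, 5 were called higher and 2 lower from E18 to adult, against 16.8% and 23.8% of all genes. Their median log2 fold change was 0.67. Abcg5 and Abcg8, the sterol exporter, rose by 8.21 and 7.13 (log2), Scd1 (fatty acid desaturase) by 5.75, while Lpl (lipoprotein lipase) fell by 3.98.

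Both xenobiotic receptors rose. Nr1i3 (CAR) stood at 3.38 and 2.89 RPKM at E18, 54.9 and 56.6 by P14, 71.3 and 78.4 by P28, and 79.6 and 62.6 in adult, a rise of 5.38 ± 0.16 (41.7-fold). Nr1i2 (PXR) stood at 9.52 and 9.68 RPKM at E18, 36.7 and 35.7 by P14, 26.8 and 30.0 by P28, and 37.8 and 29.6 in adult, a rise of 2.69 ± 0.13. The P14 and adult samples of Nr1i2 overlapped. CAR held 24.6 ± 2.27% of the summed PXR and CAR RPKM at E18, 60.6 ± 0.990% at P14 and 67.9 ± 0.0702% in adult. By reads its shares were 15.4, 46.3 and 54.2%, so that CAR was the smaller form at P14 on that scale. Of 15 PXR and CAR targets tested, 12 were called higher and 1 lower in adult than at E18, against 16.8% and 23.8% of all genes. Cyp2c29 and Cyp1a2 changed most. Cyp2b10, the classic CAR target, stood at 0.0400 and 0.0695 RPKM at E18, 0.981 and 1.60 by P14, 6.93 and 2.94 by P28, and 2.94 and 1.35 in adult. Cyp3a11, the classic PXR target, was at 77.3 and 75.9 RPKM at P14 and at 20.3 and 14.2 in adult, and fell by 1.92 (log2) from P28 to adult, an interval in which Nr1i2 had a log2 fold change of 0.23 that did not pass.

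The vitamin D receptor went the other way. Vdr had 133 and 102 reads at E18, 6 and 27 by P14, 5 and 7 by P28, and 1 and 3 in adult. Counting the reads of each stage together against TMM-scaled library sizes, it was 28.0-fold higher at E18 than in adult, with an exact interval of 10.8 to 104 at 95% that covers counting error only. The P14 samples differed most, and without P14 replicate 1 Vdr was no longer called lower at P14 than at E18. Hepatocytes are known to express little Vdr. The leukocyte and stem cell list fell over the same stages, with its 11 genes summing to 572 and 667 RPKM at E18, 64.7 and 68.8 by P14, 4.93 and 4.45 by P28, and 2.87 and 3.46 in adult, where 3 and 2 of its genes were at 0. Macrophage, endothelial, stellate and bile duct markers were present at all stages, with summed levels of 183 and 253, 108 and 94.0, 203 and 167, and 46.6 and 35.2 RPKM at E18 and of 90.0 and 96.5, 66.5 and 57.5, 100.5 and 102, and 27.0 and 36.5 RPKM in adult, none at 0. The part of any of these lists in the fall of Vdr was not tested. In bulk tissue, fewer cells of a type and less RNA per cell cannot be told apart.

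Among the peroxisome proliferator-activated receptors, the alpha form held the largest share at every stage. Ppara, the fatty acid sensor that drives hepatic fatty acid oxidation, stood at 12.3 and 9.11 RPKM at E18, 30.8 and 36.2 by P14, 36.6 and 38.5 by P28, and 41.4 and 42.4 in adult. It rose by 2.84 ± 0.15 (log2) from E18 to adult, most of it by P14 (2.50 ± 0.15), and neither later step passed the FDR. Ppard, the widely expressed form, stood at 8.42 and 6.20 RPKM at E18 and at 2.88 and 2.76 in adult, a log2 fold change of -0.50 ± 0.25 that passed the FDR only (adjusted p = 0.098). Its P28 duplicates were apart at 5.71 and 3.32 RPKM. Pparg, the regulator of adipocyte formation and lipid storage, had a peak. It stood at 1.69 and 1.55 RPKM at E18, 5.68 and 5.73 by P14, 2.67 and 1.69 by P28, and 0.935 and 1.20 in adult. It rose by 2.67 ± 0.22 to P14, then fell by 1.35 ± 0.21 and by 1.05 ± 0.22 (FDR only), and ended with a change of 0.27 ± 0.23 from E18 that did not pass the FDR. Ppara held 54.5 ± 0.663% of the summed PPAR RPKM at E18, 71.6 ± 0.139% at P14 and 91.5 ± 0.0667% in adult, and Pparg 8.36 ± 1.17%, 12.3 ± 1.30% and 2.33 ± 0.370%. By reads in place of RPKM, Ppara held 75.1, 87.6 and 96.6% and Pparg 3.04, 3.96 and 0.648% at these stages.

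Of 20 PPARA targets tested, 14 were called higher and 2 lower in adult than at E18, against 16.8% and 23.8% of all genes. Their median log2 fold change was 2.32. Fabp1 (fatty acid binding) rose by 5.84 on the log2 scale. Cpt1a, which admits fatty acids to mitochondria, was highest at P14 with 106.5 and 101 RPKM, against 7.95 and 7.07 at E18 and 51.1 and 54.0 in adult. Acaa1b (a peroxisomal thiolase) was also highest at P14, with 213 and 211 RPKM against 104 and 69.4 in adult. Among 6 PPARG targets tested, 4 were called higher and 1, the fatty acid transporter Cd36, lower, against 16.8% and 23.8% of all genes. Of the 4 named from this list, Plin4 (a lipid droplet protein) had its highest mean at P14, where Pparg was highest, while Mogat1 was highest at P28, Cidec in adult and Cd36 at E18.

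The retinoid receptors were split. Rxra, the main RXR of hepatocytes and the partner of FXR, LXR, PXR, CAR and PPARs, stood at 19.4 and 18.9 RPKM at E18, 72.2 and 68.2 by P14, 76.2 and 72.7 by P28, and 79.8 and 90.0 in adult. It rose by 2.73 ± 0.11 (log2) to P14, after which no step passed the FDR. Rxrb was at 20.2 and 18.7 RPKM at E18 and 14.4 and 14.5 in adult, with a log2 fold change of 0.45 under TMM and -0.40 with library size alone. Rxrg, best known from muscle and brain, had 10 and 16 reads at E18 and 542 and 546 at P14, and stood at 3.75 and 3.89 RPKM at P28 and 2.81 and 2.98 in adult. Its rise of 6.40 ± 0.22 from E18 to adult had the highest log2 fold change of the 38, yet it never held more than 4.31% of the RXR RPKM in any sample. Rxra held 49.5 ± 0.873% of the RXR RPKM at E18, 81.5 ± 0.386% at P14 and 83.0 ± 1.08% in adult. By reads in place of RPKM, which does not correct for transcript length, it held 65.1% at E18 and 90.5% in adult.

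The retinoic acid receptors (RARs) followed courses of their own. Rarb, which carries the element shown above, stood at 2.88 and 2.72 RPKM at E18, 5.21 and 5.33 by P14, 3.53 and 4.06 by P28, and 1.67 and 1.57 in adult. It was 3.41-fold higher at P14 than at E18 under TMM (1.77 ± 0.12 on the log2 scale, a call that was lost with library size alone), then fell by 0.44 ± 0.11 and by 1.24 ± 0.12 in the later steps (FDR only). Rara rose from 3.46 and 3.15 RPKM at E18 to 5.56 and 6.41 at P28 (1.39 ± 0.16 from E18 to adult, FDR only). Rarg stood at 3.49 and 3.44 RPKM at E18 and at 1.40 and 1.17 in adult (-0.56 ± 0.14, FDR only). Rarb held 29.2 ± 0.0448% of the summed RAR RPKM at E18, 44.3 ± 0.602% at P14 and 21.5 ± 2.39% in adult, and Rara 34.5 ± 0.962%, 31.7 ± 2.37% and 61.7 ± 2.93%. By reads in place of RPKM, Rarb held 23.9, 37.1 and 16.2% and Rara 42.0, 39.5 and 69.1% at these stages. At P14 Rarb therefore had the larger mean share in RPKM only.

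Cyp26a1, whose promoter holds the same element, did not follow Rarb. It stood at 0.186 and 0.120 RPKM at E18, 0.518 and 0.689 by P14, 9.11 and 11.2 by P28, and 19.2 and 26.0 in adult. It therefore rose by 4.11 (log2) from P14 to P28 and by 1.13 from P28 to adult, the intervals in which Rarb fell. Of 8 RAR targets tested, 3 were called higher from E18 to adult and 4 lower. Those higher were Cyp26a1, Cyp26b1 and Dhrs3, which degrade retinoic acid or reduce retinal. Among those lower was Stra6, a retinol transporter. It was near the floor throughout, with 0.0851 and 0.0779 RPKM at E18 and 0.00744 and 0.00336 in adult. The shares over all genes were 16.8% and 23.8%, and the list includes Rarb itself, which was not called. Stellate cells store retinoids, and Lrat, their retinol-esterifying enzyme, stood at 1.95 and 1.39 RPKM at E18, 7.34 and 7.58 by P14, 6.10 and 7.56 by P28, and 3.83 and 3.81 in adult. The stellate and mesenchymal list summed to 203 and 167, 218 and 284, 139 and 148, and 100.5 and 102 RPKM at these stages, with no gene at 0, and its part in the course of Rarb was not tested.

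**Figure D3:**
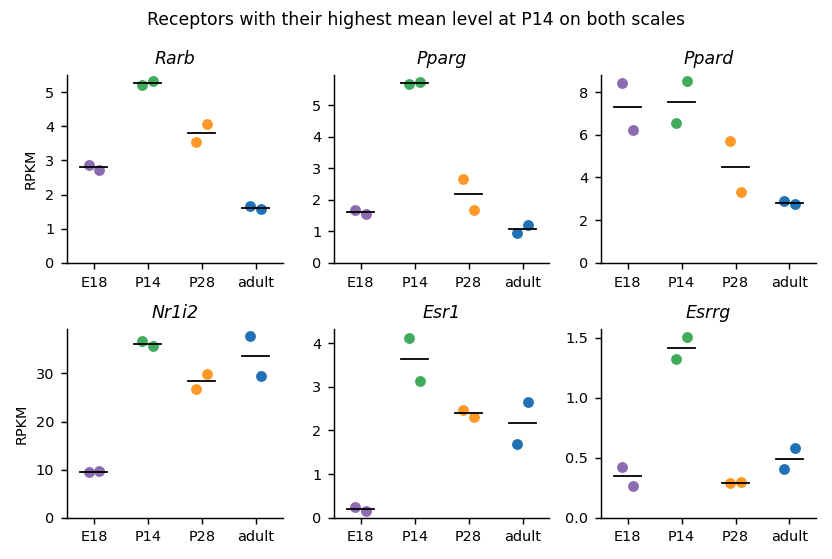
RPKM in each of the 8 samples for the 6 receptors whose mean was highest at P14 both in RPKM and in TMM-scaled counts, with a dot per sample and a line at the mean of the stage. Rarb, Pparg, Esr1 and Esrrg have both P14 samples above every other sample, whereas P14 overlaps with E18 in Ppard and with adult in Nr1i2.

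**Figure D4:**
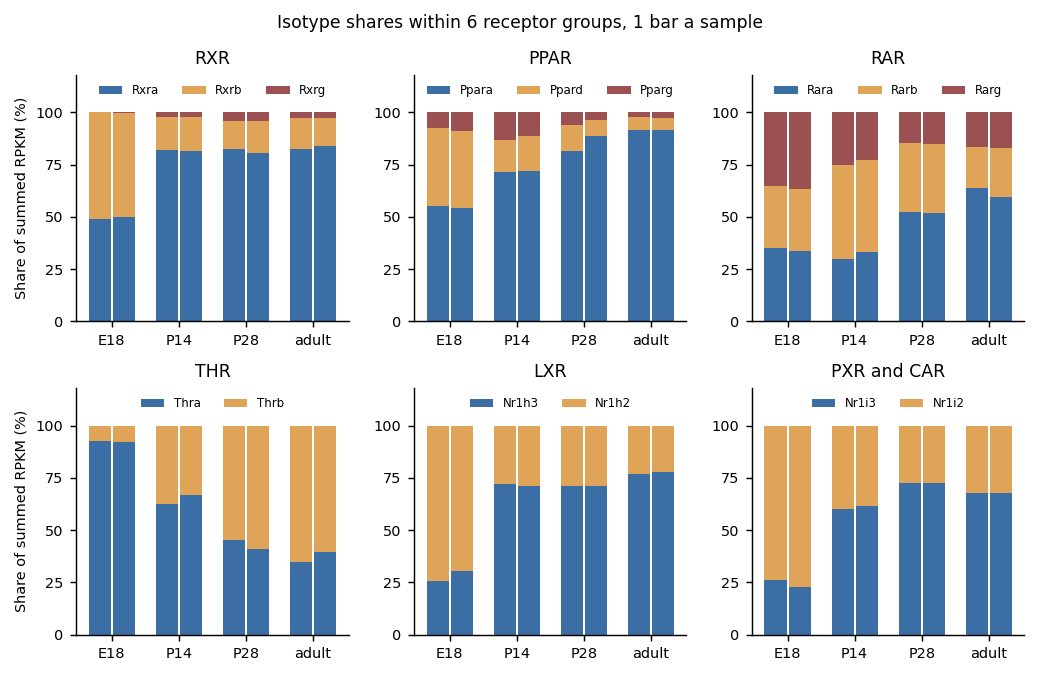
The share of summed RPKM (%) held by each isotype is stacked for every sample, 2 bars a stage, in 6 receptor groups. Rxra rises from 49.5% at E18 to 81.5% at P14, Thra falls from 92.4% to 37.0% by adult, and Nr1h3 and Nr1i3 pass from the smaller to the larger share.

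The thyroid hormone receptors also exchanged places. Thra, the form of most tissues, stood at 20.7 and 19.0 RPKM at E18, 6.57 and 6.73 by P14, 5.14 and 4.15 by P28, and 3.88 and 4.83 in adult. Thrb, the main form of adult hepatocytes, stood at 1.67 and 1.59, 3.93 and 3.34, 6.19 and 6.02, and 7.34 and 7.43 RPKM. Thrb rose by 3.05 ± 0.10 (log2) from E18 to adult and Thra fell by 1.32 ± 0.14, the latter at the FDR only under TMM and called lower with library size alone (-2.17). Thra therefore held 92.4 ± 0.182% of the THR RPKM in E18, 64.7 ± 2.96% in P14, 43.1 ± 3.20% in P28 and 37.0 ± 3.41% in adult liver, and no stage overlapped with the next. By reads in place of RPKM the shares of Thra were 80.7, 38.6, 20.6 and 16.8%, so that Thrb was the larger form at P14 on that scale and the smaller one in RPKM. Of 6 thyroid hormone targets tested, 5 were called higher from E18 to adult and none lower, against 16.8% and 23.8% of all genes. Thrsp, a lipogenic gene, rose from 0.113 and 0.137 RPKM to 2478 and 2068. Dio1, which makes active thyroid hormone, rose from 0.0321 and 0.0142 RPKM at E18 to 159 and 163 at P14, and Dio3, which inactivates it, stood at 0.555 and 0.437 RPKM at E18, 0.541 and 0.584 at P14 and 0.0217 and 0.00654 in adult.

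The steroid receptors tested were higher in adult than at E18. Nr3c1, the glucocorticoid receptor, had the smallest change of the 3, with 13.2 and 10.9 RPKM at E18 and 14.9 and 18.2 in adult (1.33 ± 0.13 on the log2 scale, FDR only). Nr3c2, the mineralocorticoid receptor, stood at 0.570 and 0.454 RPKM at E18, 0.777 and 0.680 by P14, 1.65 and 1.58 by P28, and 1.64 and 2.83 in adult (2.99 ± 0.24 from E18 to adult). Esr1, the estrogen receptor of hepatocytes, stood at 0.257 and 0.159 RPKM at E18, 4.12 and 3.14 by P14, 2.48 and 2.32 by P28, and 1.70 and 2.66 in adult. It was 31.4-fold higher at P14 than at E18, and fell by 0.56 ± 0.23 from P14 to P28 (FDR only). P14 replicate 1 had the higher Esr1 and a Y signal, and P14 replicate 2 the lower Esr1 and most of the Xist. Esr2 and Pgr were at 0.0598 RPKM or less in every sample and were not tested. Of 11 glucocorticoid targets tested, 6 were called higher and 1 lower from E18 to adult, against 16.8% and 23.8% of all genes. Tdo2, Pck1 and Tat, enzymes of amino acid and glucose metabolism, were up by 13.2, 12.7 and 12.4 (log2). The one called lower was Mt2 (metallothionein), at 1168 and 1615 RPKM at E18 and 2.70 and 3.63 in adult.

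Among the estrogen-related receptors, which are orphan receptors of mitochondrial metabolism, Esrra stood at 9.99 and 10.1 RPKM at E18, 16.2 and 16.3 by P14, 15.4 and 18.2 by P28, and 22.6 and 18.0 in adult, a rise of 1.89 ± 0.13 that was called under TMM but not with library size alone. Esrrg stood apart. It was at 0.425 and 0.267 RPKM at E18, 1.33 and 1.51 by P14, 0.287 and 0.296 by P28, and 0.403 and 0.581 in adult. Its rise of 2.89 ± 0.24 to P14 and its fall of 2.25 ± 0.24 to P28 (4.75-fold) were both called, and it was the only receptor called lower from P14 to P28. Esrrb stayed at 0.157 RPKM or less in every sample and rose by 1.25 ± 0.35 from P28 to adult (FDR only). Ppargc1a, the coactivator of these receptors, was at 1.93 and 1.40 RPKM at E18 and 3.57 and 2.29 at P14. It rose by 1.68 ± 0.22 to P14 under TMM, while its RPKM at these stages differed by less than 3-fold. It then fell by 0.69 ± 0.22 to P28 (FDR only), and its change of 0.42 ± 0.22 from E18 to adult did not pass.

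The receptors linked to the circadian clock rose too, Nr1d1 mainly after P14. Nr1d1 (REV-ERB alpha), a repressor of Arntl (Bmal1), stood at 4.0 and 3.58 RPKM at E18, 4.58 and 3.77 by P14, 30.6 and 53.6 by P28, and 48.9 and 47.3 in adult. It was 10.3-fold higher at P28 than at P14 (3.37 ± 0.23 on the log2 scale), the only receptor called higher in that step. Nr1d2 (REV-ERB beta) rose from 0.488 and 0.242 RPKM at E18 to 1.20 and 0.923 by P14, 2.70 and 3.16 by P28, and 4.35 and 3.85 in adult (4.36 ± 0.29 from E18 to adult). Rora, which activates the same sites, stood at 1.82 and 0.842 RPKM at E18, 1.67 and 1.34 by P14, 3.25 and 2.45 by P28, and 3.15 and 3.83 in adult (2.26 ± 0.32), and its E18 duplicates were the farthest apart, by ratio, of the receptors with at least 100 reads at that stage.

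These values came with those of the clock genes themselves. Of 15 clock genes tested, 10 were called higher and none lower in adult than at E18, against 16.8% and 23.8% of all genes. Dbp, an output gene of the clock, stood at 2.02 and 1.69 RPKM at E18, 8.13 and 7.90 by P14, 19.6 and 66.8 by P28, and 142 and 89.7 in adult. Arntl stood at 5.72 and 5.41, 6.87 and 8.27, 7.51 and 4.58, and 1.07 and 1.80 RPKM, and fell by 2.10 (log2) from P28 to adult. Within P28, replicate 2 was higher than replicate 1 in Nr1d1 and Dbp and lower in Arntl. Transcripts of these genes cycle through the day, the time of collection is not in the labels, and its part in the rise of Nr1d1 was not tested.

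**Figure D5:**
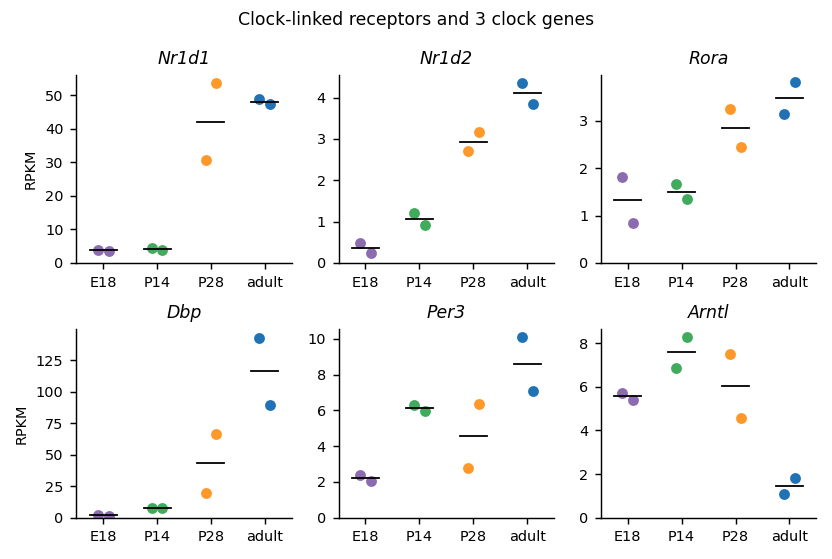
RPKM in each of the 8 samples for 3 clock-linked receptors and for Dbp, Per3 and Arntl, with a dot per sample and a line at the mean of the stage. Nr1d1 is below 5 RPKM in all E18 and P14 samples and above 30 later, the P28 duplicates are apart in Nr1d1, Dbp, Per3 and Arntl, and Arntl is lowest in adult.

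Hnf4a, the orphan receptor that maintains hepatocyte identity, stood at 62.7 and 51.4 RPKM at E18, 126 and 106.6 by P14, 123 and 155 by P28, and 181 and 184 in adult. It rose by 1.89 ± 0.15 (log2) to P14, a call that was lost with library size alone, and by 2.55 ± 0.15 to adult. Of 14 HNF4A targets tested, 13 were called higher in adult than at E18 and none lower, against 16.8% and 23.8% of all genes. Their median log2 fold change was 4.01. Apoc3 and Apoa4, both apolipoproteins, rose by 10.2 and 9.39, and G6pc (glucose release) by 11.0. Its paralog Hnf4g stood at 1.01 and 0.487 RPKM at E18, 0.259 and 0.300 by P14, 0.0982 and 0.120 by P28, and 0.0324 and 0.0263 in adult. Hnf4g had a log2 fold change of -0.56 ± 0.32 from E18 to P14 that did not pass under TMM, and then fell by 1.32 ± 0.35 to P28 (FDR only). The adult values rest on 10 and 9 reads, and the fall of 1.91 ± 0.47 from P28 to adult was not called without adult replicate 2.

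Hnf4g and Nr5a2 are also known from pancreas and gut, and their values are given beside the markers of that tissue. E18 replicate 1 was higher than replicate 2 in Hnf4g and in the sum of the bile duct list (46.6 and 35.2 RPKM). In that list Epcam (18.4 and 11.6 RPKM) and Krt19 (10.2 and 6.88) were also higher in replicate 1, and Spp1 was not (9.78 and 10.5). The pancreas list summed to 281 in replicate 1 and 623 in replicate 2. In the later samples that list summed to 24.3 to 90.5 RPKM, most of it Cela1, and 2 to 7 of its 10 genes were at 0. Nr5a2 (LRH-1), a regulator of bile acid synthesis, stood at 4.47 and 3.01 RPKM at E18, 3.31 and 3.60 by P14, 7.83 and 7.39 by P28, and 8.32 and 7.17 in adult. It rose by 1.17 ± 0.17 from P14 to P28 (FDR only) and by 1.93 ± 0.17 from E18 to adult, a call that was lost with library size alone. The part of pancreas RNA in the E18 level was not tested.

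Among the COUP-TF and testicular receptors, Nr2f6 (EAR2) was among the abundant receptors at all stages, with 27.5 and 29.6 RPKM at E18, 51.4 and 50.1 by P14, 59.9 and 60.2 by P28, and 54.2 and 60.9 in adult (1.88 ± 0.09, called under TMM and not with library size alone). Nr2f2 (COUP-TFII) rose by 1.26 ± 0.13 and Nr2c1 (TR2) by 1.06 ± 0.10 from E18 to adult, both at the FDR only. Nr2f1 (COUP-TFI) stood at 1.05 and 0.871 RPKM at E18, 0.471 and 0.512 by P14, 0.201 and 0.184 by P28, and 0.212 and 0.106 in adult. It fell by 1.73 ± 0.31 from E18 to adult, and was not called without adult replicate 2 (-1.28). Nr2c2 (TR4) fell from 6.99 and 5.03 RPKM at E18 to 1.14 and 1.22 at P14 and then rose by 0.75 ± 0.16 to P28 (FDR only). TR2 and TR4 repress embryonic globin genes in erythroid cells, and all 12 erythroid markers, like all 7 proliferation markers, were called lower in adult than at E18. Their part in the fall of Nr2c2 was not tested. Nr6a1 (GCNF) rose by 1.02 ± 0.19 from E18 to adult at the FDR only.

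The NR4A receptors, ligand-independent immediate early genes, were low throughout. Nr4a1 stood at 1.10 and 0.975 RPKM at E18, 0.767 and 1.22 by P14, 0.560 and 0.608 by P28, and 0.290 and 0.360 in adult. It fell by 0.80 ± 0.26 (log2) from E18 to adult at the FDR only, and P14 overlapped with E18. Nr4a2 stood at 0.514 and 0.357 RPKM at E18, 0.0822 and 0.0997 by P14, 0.0672 and 0.0633 by P28, and 0.178 and 0.190 in adult, and rose by 1.47 ± 0.30 from P28 to adult (FDR only). Such genes respond quickly to handling and stress. Egr1, which belongs to that class, stood at 19.6 and 16.5 RPKM at E18, 13.2 and 26.5 by P14, 3.70 and 4.56 by P28, and 1.08 and 0.891 in adult. Like Nr4a1, Egr1 was higher in P14 replicate 2 than in replicate 1. Of 16 immediate early genes tested, 1 was called higher and 4 lower from E18 to adult, against 16.8% and 23.8% of all genes. The share of this list called lower was thus near that of all genes.

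Calls among the proteins through which receptors act are given beside 16.8% of all genes called higher and 23.8% lower from E18 to adult. Among 13 coactivators tested, Kat2b (an acetyltransferase) was called higher in adult than at E18 under TMM (1.80 ± 0.10). Its RPKM of 2.14 and 1.98 at E18 and 3.81 and 4.02 in adult differed by less than 3-fold. Prmt1 (an arginine methyltransferase) was called lower (-1.91 ± 0.10), and the median of the list was 0.39. Among 10 corepressors, none was called higher and 2 lower, Gps2 (-1.85 ± 0.10), a subunit of the NCoR complex, and Nrip1 (-1.73 ± 0.40). Ncor1 stood at 12.5 and 9.18 RPKM at E18 and 5.49 and 6.89 in adult, with a log2 fold change of 0.064 under TMM that did not pass. Of 19 enzymes tested that make or remove receptor ligands, 13 were called higher and 4 lower, against the same 16.8% and 23.8% of all genes. Dio1, Cyp7b1 (oxysterol and steroid hydroxylation) and Cyp26a1 stood at 13.2, 10.7 and 8.06 on the log2 scale. Cyp7b1 is also male-biased in adult liver. It stood at 1.39 and 1.47 RPKM in the P14 pair, which differed in Ddx3y and Xist, and at 51.3 and 120 by P28 and 390 and 499 in adult, samples that all read as male.

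By TMM-scaled mean, 16 of the 38 receptors were highest in adult, 8 at P28, 8 at P14 and 6 at E18. In RPKM the counts were 15, 7, 6 and 10, because Nr1h2, Rxrb, Rarg and Nr4a1 then stood highest at E18. The most common course, in 14 receptors, was a rise at the FDR alone in each of the first steps, E18 to P14 and P14 to P28, and no change that passed from P28 to adult, among them Nr1h3, Nr1i3, Thrb, Nr3c2 and Nr1d1. With library size alone, 6 of these 14 still rose from E18 to P14 at the FDR (Nr1h3, Nr1i3, Thrb, Nr3c2, Nr1d2 and Nr2f6). Nr2c1 then fell, and 7 did not pass in that step (Rara, Nr3c1, Nr1d1, Rora, Nr2f2, Nr5a2 and Nr6a1, the last pair with a negative change). Ppara, Rxra, Rxrb, Esrra and Hnf4a rose to P14 and passed in neither later step, with Rxrb again negative with library size alone. Pparg, Rarb, Rarg and Nr4a1 rose to P14 and fell in both later steps, of which Rarg and Nr4a1 had a negative first step with library size alone.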

How the data were processed

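Per the labels, 8 samples of FVB liver were grouped by stage, with 2 each at E18, P14, P28 and adult. The authors sequenced poly(A) RNA as read pairs and deposited, for each gene symbol, raw read counts and RPKM; the RPKM were computed by the authors from these counts, with 1 length per gene and the depth of each sample. The submitters' processing notes name the mm9 build; the aligner, counter and annotation are not given in the sources used here. RNA was isolated with Trizol per the labels and with the RNeasy kit per the Methods. No value columns were left unmapped.

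Counts were filtered with filterByExpr, scaled by TMM and fitted to all 8 samples with 1 coefficient per stage in edgeR (version 4.0.16, R 4.3.3, glmQLFit and glmQLFTest), with Benjamini-Hochberg adjustment over 17081 genes, FDR below 0.1 and more than 3-fold for a call. Alternatives used DESeq2 (1.42.0), limma (3.58.1) on log2(RPKM + 0.1), other scaling, filters and thresholds, a replicate block, and each sample left out. The fit was tested on simulated data. Isotype shares used RPKM, with reads as an alternative. RefSeq promoters (GRCm38.p6) were used only by symbol, and no coordinates were converted.

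Every listed receptor was accounted for, and those called in any comparison were given in every sample. From each pathway list up to 4 called genes with the largest change were named, with a few named whatever their change (such as Cyp7a1, Arntl and Cpa1), while Per3, Epcam, Krt19 and Lrat's stage values were added after their values were seen. The receptors and lists were chosen with earlier results of these data known. Duplicates are described in the study as biological, and whether they share a litter or day is not stated, so p-values measure the spread between these samples. Depth was 68154675 to 106055723 reads on genes, and intervals cover counting error only.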

Additional observations from a re-analysis of the deposited data

How the results depend on the processing

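Over the 38 receptors tested, all kept direction and side of the threshold from E18 to adult under median-ratio size factors, DESeq2, no filter on low counts, only the 2 stages compared and the replicate block. With library size alone 28 of 38 did so, and with limma on log2(RPKM + 0.1) 29 did. Replicate numbers did not pair samples (mean correlation of deviations -0.078 over 6 pairs of stages), and with the replicate block 18 receptors were called higher and 3 lower from E18 to adult, as without it, and the block changed no other count. Direction reversed from E18 to adult with library size alone and with limma for Nr1h2 (-0.63 and -0.65), Pparg (-0.57 and -0.57), Rxrb (-0.40 and -0.42) and Rarb (-0.76 and -0.75), and for Rarb also with at least 10 counts in every sample (-0.050); the cause was not tested beyond the scaling itself. Receptors lower in adult than at E18 numbered 5 with library size alone, 6 with no filter (Esr2, Nr2e3 and Rorb then tested), 1 with at least 10 counts in every sample (Vdr and Hnf4g then left out) and 8 with no fold threshold. Receptors higher at P14 than at E18 numbered 30 with no fold threshold, and those lower 4 with library size alone, 3 with no filter, 2 with limma, 3 at over 2-fold, 4 with no fold threshold, and 1 to 4 with a sample left out (4 without E18 replicate 2, with Nr2c2, Nr4a2 and Pgr added; 2 without E18 replicate 1 or P14 replicate 2, with Esr2 added). From P14 to P28, those higher numbered 4 at over 2-fold, 17 with no fold threshold, and 1 to 2 with a sample left out (Nr1d2 added without P14 replicate 1 or P28 replicate 1), and those lower 4, 11, and 1 to 2 (Vdr added without P14 replicate 1, Pparg without P28 replicate 1). From P28 to adult, those higher numbered 2 at over 2-fold and 4 with no fold threshold, and those lower 0 with at least 10 counts in every sample, 0 with limma, 4 at over 2-fold, 8 with no fold threshold, and 0 to 1 with a sample left out (0 without adult replicate 2). With a sample left out, the lone sample of a stage is assumed to vary like the other stages. Depth limited Vdr, Hnf4g, Rxrg at E18 and the 8 receptors with at most 17 reads.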
